A study of Mus musculus with 6 samples.

Results

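The genes described here are a ligand, the receptors and the binding proteins of the insulin-like growth factor (IGF) pathway. They are the 9 genes *Igf1*, *Igf1r*, *Insr*, *Igfbp2*, *Igfbp3*, *Igfbp4*, *Igfbp5*, *Igfbp6* and *Igfbp7*, of 26251 genes listed in any of the 6 libraries. They were chosen by name, and all 9 are listed in every library. The study asked how the absence of anti-Müllerian hormone (*Amh*) and of the activin B subunit (*Inhbb*) changes the cells of the fetal XY gonad, and sequenced mRNA of single cells from mouse gonads at E15.5 on the 10x Genomics platform. There were 2 libraries for each of 3 groups. Control XY gonads were testes and control XX gonads were ovaries, both wild type for *Amh* and *Inhbb*, and dKO XY gonads were *Amh*-/-; *Inhbb*-/-. All came from crosses of single heterozygotes on a C57BL/6 background, gonad pairs of an animal were pooled, and the cells were frozen until the genotype was known. No group lacked 1 of the genes alone, so the loss of *Amh* and the loss of *Inhbb* cannot be told apart.

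IGF1 is a secreted growth factor that binds the receptor tyrosine kinase IGF1R, and the insulin receptor INSR is its close relative. The IGF-binding proteins are secreted proteins that hold IGFs outside the cell and so set how much ligand reaches a receptor, and IGFBP7 is a more distant, low-affinity relative of the others. In the mouse gonad this receptor family is known for a role in XY sex determination, since XY embryos that lack the receptors together form ovaries.

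In GRCm38 with the GENCODE M21 annotation all 9 are protein-coding genes. *Igfbp2* (chromosome 1, 72824503 to 72852474, plus strand) and *Igfbp5* (chromosome 1, 72857932 to 72874884, minus strand) are neighbours whose 3′ ends face each other across 5457 bases. *Igfbp3* (7206086 to 7213923, minus strand) and *Igfbp4* (99041244 to 99054392, plus strand) lie far apart on chromosome 11. *Igf1* is on chromosome 10 (87858265 to 87937042, plus strand), *Igf1r* on chromosome 7 (67952827 to 68233668, plus strand), *Insr* on chromosome 8 (3122061 to 3279617, minus strand), *Igfbp6* on chromosome 15 (102144362 to 102149511, plus strand) and *Igfbp7* on chromosome 5 (77349240 to 77408041, minus strand). The 120 bases before the start site are shown for *Igfbp2* and for the 4 binding protein genes called between the sexes in interstitial cells. They are from RefSeq on GRCm38.p6, 5′ to 3′ on the strand of the gene, with the motifs TATAAA and GGGCGG, searched on both strands, in capitals.
*Igfbp2* promoter, chr1:72824360-72824479, plus strand: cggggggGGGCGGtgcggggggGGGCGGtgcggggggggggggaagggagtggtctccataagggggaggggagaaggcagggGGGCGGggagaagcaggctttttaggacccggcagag
*Igfbp3* promoter, chr11:7213924-7214043, minus strand: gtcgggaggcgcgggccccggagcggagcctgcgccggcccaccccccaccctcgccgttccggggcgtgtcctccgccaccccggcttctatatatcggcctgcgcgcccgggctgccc
*Igfbp4* promoter, chr11:99041124-99041243, plus strand: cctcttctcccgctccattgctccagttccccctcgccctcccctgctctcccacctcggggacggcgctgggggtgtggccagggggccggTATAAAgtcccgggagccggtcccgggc
*Igfbp5* promoter, chr1:72874866-72874985, minus strand: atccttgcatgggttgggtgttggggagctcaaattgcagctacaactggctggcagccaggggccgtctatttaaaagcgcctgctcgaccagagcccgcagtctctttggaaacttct
*Igfbp7* promoter, chr5:77408046-77408165, minus strand: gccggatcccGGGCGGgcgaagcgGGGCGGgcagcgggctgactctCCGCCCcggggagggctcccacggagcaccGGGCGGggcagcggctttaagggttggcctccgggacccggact
A window was found for 8 of the 9 genes. In the 250 bases before the start, *Igfbp7* held GGGCGG 4 times, *Igfbp2* 3 times and *Igf1r* 2 times. *Igfbp4* held TATAAA 28 bases before its start, and *Igfbp6* held it 1 time on the other strand. A window at another start of *Igfbp2*, not shown, held neither motif, nor did those of *Igf1*, *Igfbp3* and *Igfbp5*. Of 32851 mouse promoter windows of this length, 32.7% held GGGCGG and 12.4% held TATAAA.

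After filtering, 39350 of 68064 barcodes were kept, with 4781 to 8569 cells and 118475468 to 221675316 UMIs per library, and 4 to 25 barcodes shared between any pair of libraries. Clusters were named from marker genes without the 9 genes among the variable genes, which gave supporting (the Sertoli and granulosa lineage), interstitial, Leydig, germ, endothelial, pericyte, epithelial and immune cells. The level of a gene is the sum of its UMIs in all cells of 1 type and library, per 1000000 UMIs of those cells (CPM). In supporting cells *Amh* had 2035 and 1895 CPM in control XY and 17.9 and 15.7 CPM in dKO XY, and *Inhbb* at 161 and 184 CPM in control XY and 41.9 and 50.7 CPM in dKO XY, so both were lower in the supporting cells of the libraries labelled as knockout. *Inhbb* was also called lower in dKO XY Leydig cells (log2 difference -1.91, edgeR adjusted p = 0.00392) but higher in dKO XY epithelial cells (1.98, edgeR adjusted p = 0.0426), where it had 4.13 and 7.31 CPM in control XY and 21.1 and 25.8 CPM in dKO XY. In interstitial (0.52) and endothelial cells (0.31) its difference was positive and not called. *Amh* was at 10.2 and 29.8 CPM in the immune cells of the control XY libraries. Levels in immune cells are therefore given with most results of the 9 genes in supporting cells, but not with those of *Insr* or of the other pathway genes. The part of free RNA or doublets in the results was not tested. With 2 libraries per group an exact permutation test cannot go below p = 0.333, so the tests below are edgeR quasi-likelihood tests over all genes, with the spread shared over the libraries of all groups, Benjamini-Hochberg adjusted p and a call under 0.05.

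Each gene had its own order of cell types in control XY gonads. *Igf1*, the ligand, was highest in epithelial cells (261 ± 48.0 CPM, mean ± SD, n = 2 libraries here and below) and interstitial cells (167 ± 7.38 CPM), whose libraries did not overlap, and lowest in Leydig cells (14.3 ± 2.16 CPM). These epithelial cells were few, 32 and 51 per library. Their summed interstitial markers, given below, were near those of interstitial cells, and the part of interstitial RNA in their levels was not tested. Immune cells, which include macrophages, had 91.4 ± 0.692 CPM of *Igf1*. The receptor gene *Igf1r* varied less between types, from 60.8 ± 6.59 CPM in Leydig cells to 163 ± 8.14 CPM in endothelial cells, and the pericytes, epithelial cells and interstitial cells between 131 and 134 CPM overlapped. *Insr* was highest in endothelial cells, at 69.8 ± 1.22 CPM. The next type in that order, Leydig cells, had 26.8 ± 1.71 CPM of *Insr*, and it overlapped with immune cells.

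The binding proteins were divided among the cell types. *Igfbp7* was highest in endothelial cells (1068 ± 11.9 CPM), followed by Leydig cells (941 ± 83.3 CPM) and pericytes (795 ± 113 CPM), and these types did not overlap. *Igfbp4* was highest in endothelial cells (553 ± 60.2 CPM) and interstitial cells (472 ± 34.6 CPM). *Igfbp5* and *Igfbp6* were both highest in epithelial cells, at 1163 ± 264 CPM for *Igfbp5* and 170 ± 25.5 CPM for *Igfbp6*, with interstitial cells next. The limits given above for the epithelial cells of control XY hold for the binding proteins too. *Igfbp3* was highest in interstitial cells (215 ± 24.2 CPM), which overlapped with epithelial cells (190 ± 28.3 CPM). *Igfbp2* was highest in Leydig cells (298 ± 2.85 CPM), which overlapped with epithelial cells (273 ± 50.1 CPM), and supporting cells were the lowest type, at 16.4 ± 0.751 CPM. The dot plot of the levels in each library shows these orders beside those of the dKO XY and control XX gonads.

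**Figure D1:**
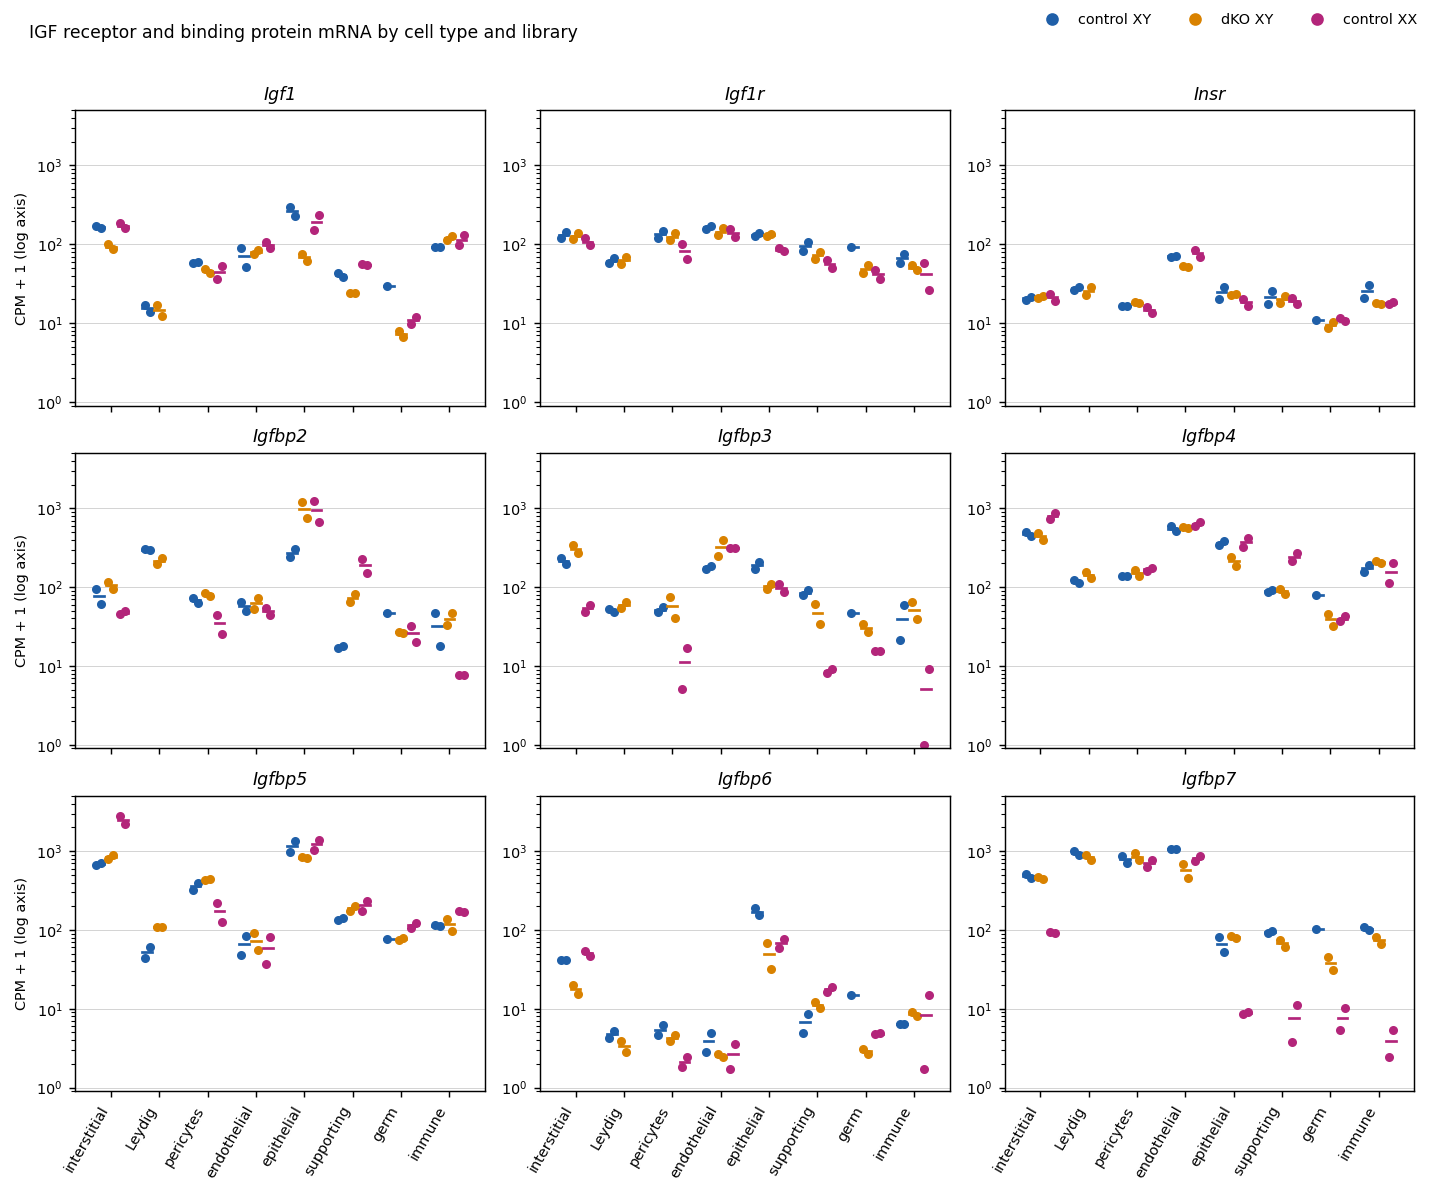
Level of each of the 9 genes (CPM + 1, log axis) in each cell type. Points are libraries, coloured by group, and short lines are group means; control XY germ cells have 1 library, and control XX has no Leydig cells. *Igfbp2* in supporting cells is at 15.9 and 16.9 CPM in control XY, 64.1 and 80.7 CPM in dKO XY and 229 and 148 CPM in control XX, and *Insr* has its highest points in endothelial cells.

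In supporting cells, the cells that make *Amh* in the testis, 3 of the 9 genes were called between dKO XY and control XY, where 16.6% of all genes tested were called. *Igfbp2* rose, and *Igfbp3* and *Igf1* fell. The median log2 difference of the 9 genes was -0.10, and that of all genes tested 0.018.

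*Igfbp2* encodes a binding protein that is made in many fetal tissues. Its level in supporting cells was 15.9 and 16.9 CPM in control XY libraries 1 and 2, and 64.1 and 80.7 CPM in dKO XY. The groups did not overlap, and the dKO XY level lay 2.15 higher on the log2 scale (SE 0.22, edgeR adjusted p = 0.0002), which is 4.44-fold. Immune cells of the same libraries had 45.9 and 16.9 CPM of *Igfbp2* in control XY and 31.8 and 45.6 CPM in dKO XY, so the dKO XY supporting cells were above the immune cells in each library, and the control XY supporting cells were below them in library 1 and level with them in library 2. Markers of other cell types moved with *Igfbp2*. Of 6 epithelial markers tested in supporting cells 4 were called, all higher in dKO XY (median log2 difference 3.29), and their summed level was 8.41 and 7.06 CPM in control XY, with 4 and 1 of the 7 markers at 0, and 12.6 and 14.6 CPM in dKO XY, with none at 0. Of 6 germ cell markers 5 were called, all higher in dKO XY (median 2.00), with a summed level of 65.2 and 17.2 CPM in control XY, where *Stra8* was at 0 in library 2, and 145 and 209 CPM in dKO XY. Granulosa markers were higher too, with 7 of 8 called (median 3.33) and a summed level of 857 and 828 CPM in control XY, 2120.4 and 2565 CPM in dKO XY and 3969.5 and 3607 CPM in control XX. Of 7 genes shared by the supporting lineage 5 were called, all higher, and of 6 Leydig markers 3, all higher. Of 10 Sertoli markers 4 were called lower and 1 higher, of 8 interstitial markers 4 lower, and no endothelial or immune marker was called. The part of any of these lists in the rise of *Igfbp2*, or in the other differences of supporting cells, was not tested.

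*Igfbp3* encodes the main IGF carrier of the circulation. It had 77.7 and 90.7 CPM in control XY and 59.8 and 33.1 CPM in dKO XY supporting cells, with no overlap, and fell by 0.85 on the log2 scale (SE 0.23, edgeR adjusted p = 0.0289). The call was lost without control XY library 1 (adjusted p = 0.0612), control XY library 2 (0.178) or dKO XY library 2 (0.0779). Immune cells had 20.4 and 57.5 CPM of *Igfbp3* in the control XY libraries, below the supporting cells in each of them, and 63.6 and 38.3 CPM in the dKO XY libraries, above the supporting cells in each.

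*Igf1* had 42.1 and 37.5 CPM in control XY and 23.0 and 23.1 CPM in dKO XY supporting cells, and fell by 0.77 on the log2 scale (SE 0.12, edgeR adjusted p = 0.00237). All 8 interstitial markers had UMIs in these cells, and their summed level was 875 and 1038 CPM in control XY and 509 and 464 CPM in dKO XY. Among supporting cells with low *Sycp3* and *Tcf21*, a selection added after the data were seen, *Igf1* had 16.8 and 12.4 CPM in control XY and 19.8 and 20.5 CPM in dKO XY. The log2 difference was then 0.47 with an adjusted p of 0.0814, so the fall of *Igf1* was not seen in these cells. Without likely doublets the adjusted p of *Igf1* was 0.100, while *Igfbp5* (0.81, adjusted p = 0.00512) and *Igfbp6* (1.32, adjusted p = 0.00583) were called there.

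The same selected cells gave 5 calls among the 9 genes, where 19.2% of all genes were called, and 4 of the 5 were rises. *Igfbp2* rose by 2.51 (SE 0.24, edgeR adjusted p = 4.03e-05). *Igfbp4*, a soluble inhibitor of IGF action that proteases can cut, had 24.6 and 26.5 CPM in control XY and 76.5 and 71.0 CPM in dKO XY and rose by 1.498 (SE 0.14, edgeR adjusted p = 3.88e-05). *Igfbp5*, which also binds extracellular matrix, had 52.4 and 64.8 CPM in control XY and 148 and 176 CPM in dKO XY and rose by 1.43 (SE 0.16, edgeR adjusted p = 0.000122). *Igfbp6* had 0.468 and 1.98 CPM in control XY and 9.65 and 9.02 CPM in dKO XY and rose by 2.68 (SE 0.35, edgeR adjusted p = 0.000361). The control XY levels rest on few UMIs. The Sertoli-like cells, most of the selected control XY cells, had 2 and 19 UMIs of *Igfbp6*, where the floor is 3. In all supporting cells *Igfbp4* differed by -0.0013 on the log2 scale (adjusted p = 0.997), *Igfbp5* by 0.47 (adjusted p = 0.0694) and *Igfbp6* by 0.77 (adjusted p = 0.0667). In the selected cells 3 of 5 epithelial markers and 5 of 6 germ cell markers were called as well, all higher in dKO XY (median log2 differences 2.84 and 1.74). The summed epithelial markers were 9.36 and 7.91 CPM in control XY and 13.1 and 13.7 CPM in dKO XY, and the summed germ cell markers 81.7 and 19.9 CPM in control XY and 153 and 206 CPM in dKO XY. Granulosa markers were called in 7 of 8 cases, all higher in dKO XY (median 3.21), and Sertoli markers in 6 of 10, 5 lower and 1 higher. What these lists contributed to the rises was not tested.

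The immune cells of the same libraries had more *Igfbp4* than the selected supporting cells, at 155 and 190.4 CPM in control XY and 214 and 199 CPM in dKO XY. For *Igfbp5* they had 114 and 111 CPM in control XY, above the selected supporting cells, and 138 and 95.5 CPM in dKO XY, below them. For *Igfbp6* the immune level was 5.37 and 5.39 CPM in control XY, above the selected supporting cells, and 8.12 and 6.99 CPM in dKO XY, below them. Immune cells had 91.8 and 90.9 CPM of *Igf1* in control XY and 111 and 127 CPM in dKO XY, more than supporting cells in each library, and macrophages are a known source of it. *Igf1r* had 56.7 and 74.0 CPM in control XY and 53.6 and 45.6 CPM in dKO XY immune cells, less than in supporting cells.

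Those cells clustered into 2 Sertoli-like subclusters, which held 190 of 201 and 407 of 432 control XY cells, and 3 others. The larger Sertoli-like subcluster was led by *Dppa5a*, *Dppa3*, *Utf1* and *Cst9*, and its germ cell markers scored second (1.49) after its Sertoli markers (2.35). The smaller was led by dividing-cell genes such as *Nusap1*, *Hmmr* and *Prc1*. There were 678 and 424 dKO XY Sertoli-like cells, and 3 of the 9 genes were called, where 14.4% of all genes were. *Igfbp2* had 5.64 and 10.2 CPM in control XY and 29.2 and 42.8 CPM in dKO XY Sertoli-like cells, without overlap, and rose by 2.07 (SE 0.26, edgeR adjusted p = 0.000492). All of these levels were below those in the immune cells of the same library, and the part of free RNA in the difference was not tested. *Igfbp3* (74.8 and 69.3 CPM in control XY, 55.1 and 37.8 CPM in dKO XY) fell by 0.68 (SE 0.17, edgeR adjusted p = 0.0228), which was lost without dKO XY library 2 (adjusted p = 0.152) and at a mitochondrial share under 10% (0.0651). *Igfbp4* (19.6 and 18.3 CPM in control XY, 30.01 and 27.2 CPM in dKO XY) rose by 0.55 (SE 0.15, edgeR adjusted p = 0.0318), which was lost without control XY library 1 (0.0569), control XY library 2 (0.183) or dKO XY library 1 (0.0872), and with DESeq2 (0.0845). These *Igfbp4* levels too were below those in the immune cells of each library. *Igfbp5* had 15.9 and 29.8 CPM in control XY and 46.3 and 34.7 CPM in dKO XY, all below the immune cells, and was not called. It was called higher with DESeq2 (0.76, DESeq2 adjusted p = 0.0357) and without likely doublets (1.17, edgeR adjusted p = 0.00345). Without TMM and without the filter on low counts it was called as well. *Igfbp7* had 37.8 and 35.3 CPM in control XY and 51.8 and 45.8 CPM in dKO XY Sertoli-like cells, without overlap. All were below the immune cells, and it was not called. It was called higher with a replicate block (0.37, edgeR adjusted p = 0.0388) and without likely doublets (0.54, edgeR adjusted p = 0.0467). *Igf1* had 5.81 and 5.78 CPM in control XY and 6.45 and 4.38 CPM in dKO XY Sertoli-like cells, and these overlapped. The interstitial marker sum in Sertoli-like cells was 155 and 243 CPM in control XY and 157 and 146 CPM in dKO XY. All 7 granulosa markers tested there were called higher in dKO XY (median log2 difference 1.96), with a summed level of 954 and 957 CPM in control XY and 1629 and 1752 CPM in dKO XY. Of 6 germ cell markers 4 were called, all higher (median 2.25), and of 4 epithelial markers 3 were called higher and 1 lower (median 3.003). For the Sertoli-like differences the part of these lists was not tested.

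The other dKO XY cells, 493 and 468 in number, lay in the subclusters led by *Cela1*, *Lmcd1* and *Spon1*, most of them in the last. That last subcluster had *Cyp11a1* among its leading genes, and among the lists of all cell types the Leydig list scored highest in it. They had 128 and 122 CPM of *Igfbp2*, 157 and 119 CPM of *Igfbp4*, 324 and 331 CPM of *Igfbp5*, 21.5 and 15.3 CPM of *Igfbp6* and 42.9 and 38.3 CPM of *Igf1*. Each of these was higher in both libraries than in the dKO XY Sertoli-like cells, where *Igfbp5* was at 46.3 and 34.7 CPM and *Igfbp6* at 2.83 and 3.34 CPM. *Igfbp3* was lower, at 30.7 and 19.6 CPM, and *Igfbp7* was at 64.2 and 57.3 CPM. Immune cells of the same libraries had more *Igfbp4* (214 and 199 CPM), *Igf1* (111 and 127 CPM), *Igfbp3* (63.6 and 38.3 CPM) and *Igfbp7* (81.0 and 64.9 CPM). They had less *Igfbp2* (31.8 and 45.6 CPM), *Igfbp5* (138 and 95.5 CPM) and *Igfbp6* (8.12 and 6.99 CPM). The part of free RNA or of Leydig RNA in these levels was not tested. No test was made between subclusters, since the same cells defined them. The plot of supporting cells and their subsets shows the levels of each library.

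**Figure D2:**
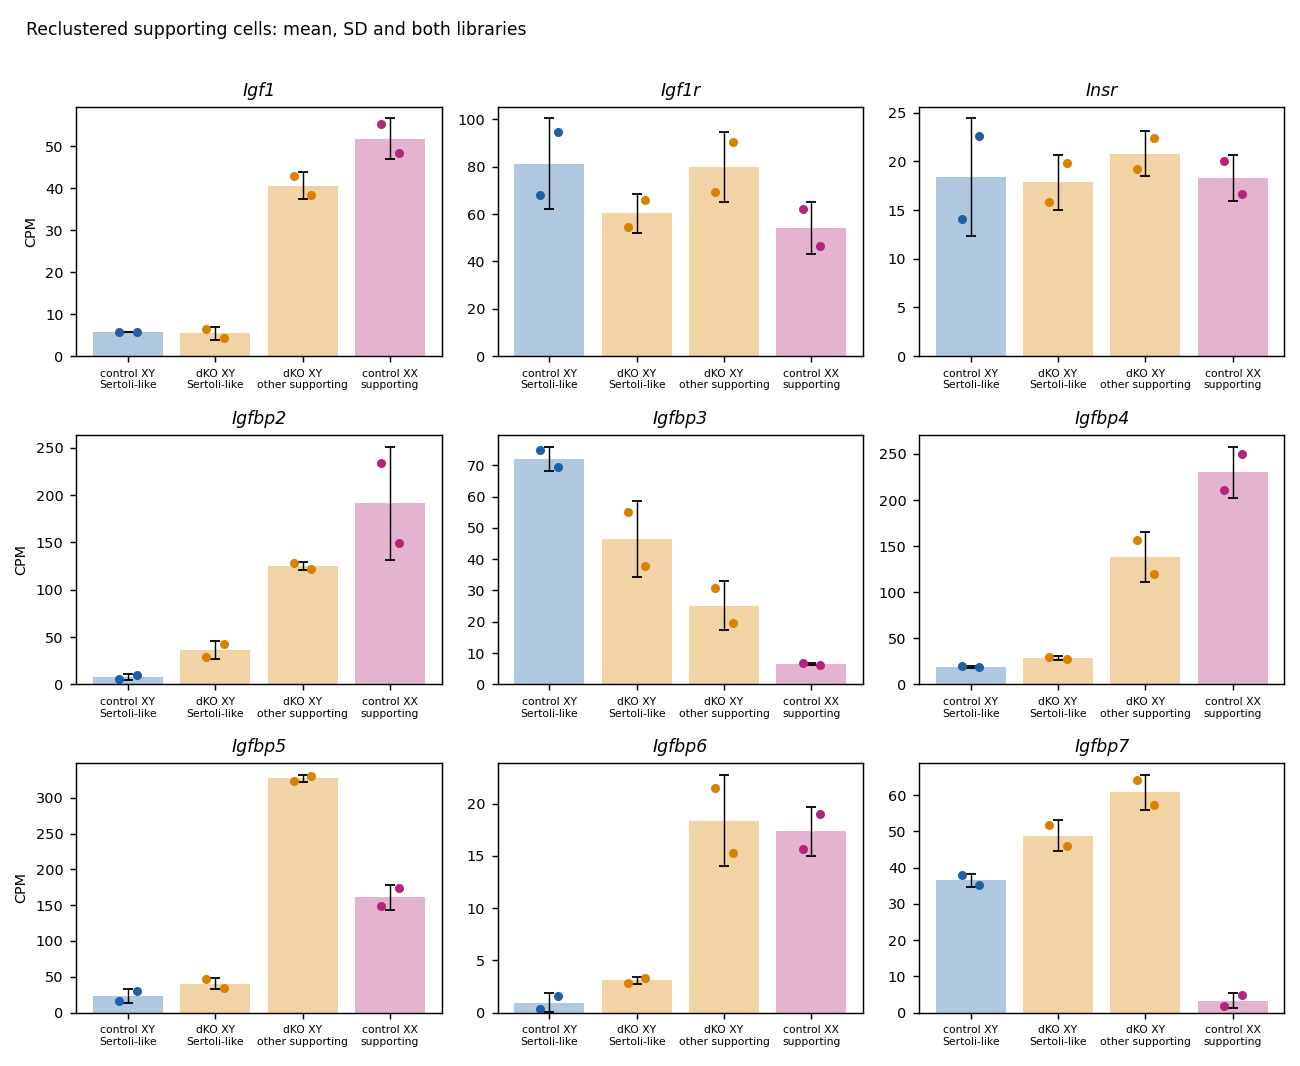
Levels (CPM) of the 9 genes among reclustered supporting cells: control XY Sertoli-like, dKO XY Sertoli-like, other dKO XY and all control XX cells. Bars are means of 2 libraries, whiskers the SD and points the libraries. *Igfbp5* is at 324 and 331 CPM in the other dKO XY cells and at 46.3 and 34.7 CPM in the dKO XY Sertoli-like cells.

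Between the sexes, 8 of the 9 genes were called in supporting cells, where 48.7% of all genes were called between control XX and control XY. The median log2 difference was 0.40 for the 9 genes and 0.035 for all genes. *Igfbp2*, *Igfbp4*, *Igfbp5*, *Igfbp6* and *Igf1* were higher in control XX, and *Igfbp3*, *Igfbp7* and *Igf1r* were higher in control XY. *Insr* was at 20.1 and 16.3 CPM in control XX and 16.7 and 24.4 CPM in control XY and was not called (log2 difference -0.24, adjusted p = 0.369).

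*Igfbp2* was at 229 and 148 CPM in control XX supporting cells, 11.1-fold above control XY (log2 difference 3.47, SE 0.23, edgeR adjusted p = 1.74e-06). In the immune cells of the control XX libraries it was at 6.65 and 6.63 CPM. All 6 epithelial markers tested were called higher in control XX supporting cells as well (median log2 difference 4.86), with a summed level of 44.0 and 56.9 CPM, and all 8 granulosa markers were higher (median 5.72) while all 10 Sertoli markers were lower (median -5.20). The part of epithelial cells in the level of *Igfbp2* was not tested. *Igfbp3* was at 7.23 and 8.27 CPM in control XX, 11.3-fold below control XY (log2 difference -3.50, SE 0.25, edgeR adjusted p = 2.72e-06). *Igfbp4* was at 212 and 269 CPM in control XX and 86.1 and 90.4 CPM in control XY (log2 difference 1.39, SE 0.14, edgeR adjusted p = 3.21e-05). None of these groups overlapped.

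*Igfbp7* was at 2.82 and 10.3 CPM in control XX supporting cells and 89.9 and 96.8 CPM in control XY (log2 difference -3.98, SE 0.46, edgeR adjusted p = 6.46e-05). Immune cells of the same libraries had 1.48 and 4.42 CPM of *Igfbp7* in control XX, 108.5 and 98.1 CPM in control XY and 81.0 and 64.9 CPM in dKO XY, where supporting cells had 73.4 and 59.8 CPM. In the XY groups the level of *Igfbp7* in supporting cells was thus below that in immune cells in each library, and the part of free RNA in the sex difference was not tested. Of 6 Leydig markers 4 were called lower and 2 higher in control XX supporting cells (median log2 difference -1.77). Pericyte (5 of 7), interstitial (5 of 8) and immune markers (4 of 7) were called lower as well, and 1 pericyte marker higher. What these lists contributed to the sex differences was not tested. Leydig cells, which control XX gonads lacked, had 882 CPM or more of *Igfbp7* in control XY.

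*Igf1r* was at 62.5 and 49.0 CPM in control XX and 80.6 and 107 CPM in control XY supporting cells (log2 difference -0.80, SE 0.18, edgeR adjusted p = 0.0052), and the adjusted p was 0.0653 without control XY library 2. *Igfbp6* was at 15.3 and 18.0 CPM in control XX and 3.90 and 7.50 CPM in control XY (log2 difference 1.43, SE 0.25, edgeR adjusted p = 0.00103). Both pairs of groups were apart. In control XX immune cells *Igf1r* was at 56.9 and 25.1 CPM, *Igfbp6* at 0.739 and 14.0 CPM, *Igfbp4* at 112 and 200.4 CPM, *Igfbp5* at 174 and 167 CPM and *Igf1* at 96.04 and 132 CPM.

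The differences of *Igf1* (0.40, SE 0.12, edgeR adjusted p = 0.0198) and *Igfbp5* (0.53, SE 0.15, edgeR adjusted p = 0.0178) between the sexes in supporting cells were smaller and less stable. *Igf1* lost its call without control XX library 1 (adjusted p = 0.0957) or control XY library 2 (0.166). At a mitochondrial share under 10% its difference was 0.063 (adjusted p = 0.801). *Igfbp5* lost its call without control XX library 2 (0.146), control XY library 1 (0.102) or control XY library 2 (0.0628), and at a mitochondrial share under 10% (0.540). In the cells with low *Sycp3* and *Tcf21* both were larger, at 1.76 for *Igf1* (SE 0.17, edgeR adjusted p = 7.03e-06) and 1.36 for *Igfbp5* (SE 0.16, edgeR adjusted p = 3.36e-05), and the same 8 genes were called, where 50.7% of all genes were.

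The dKO XY supporting cells were compared with control XX too, and 6 of the 9 genes were called, where 40.9% of all genes were. The median log2 difference was -0.059 for the 9 genes and -0.0071 for all genes. *Igfbp2* was lower in dKO XY (log2 difference -1.32, SE 0.20, edgeR adjusted p = 0.000638), as were *Igfbp4* (-1.39, SE 0.14, edgeR adjusted p = 4.58e-05) and *Igf1* (-1.18, SE 0.12, edgeR adjusted p = 4.36e-05). *Igfbp3* was higher (2.65, SE 0.24, edgeR adjusted p = 2.31e-05), and so was *Igfbp7* (3.50, SE 0.45, edgeR adjusted p = 0.000192), whose dKO XY level was below that of the immune cells. The level of *Igfbp2* in dKO XY thus lay between both controls, without overlap with either. *Igfbp6* was lower (-0.65, SE 0.22, edgeR adjusted p = 0.0381), and this call was lost without control XX library 2 (0.136) or dKO XY library 2 (0.145) and at a mitochondrial share under 10% (0.249). *Igfbp5* was at 175 and 201 CPM in dKO XY and 175 and 234 CPM in control XX and was not called (-0.059, adjusted p = 0.789). In the cells with low *Sycp3* and *Tcf21* the same 6 genes were called in this comparison, where 42.1% of all genes were. Markers of other types moved in this comparison as well. In dKO XY, Leydig markers were called higher in 4 cases and lower in 1 of 6 (median log2 difference 2.36), immune markers higher in 5 of 7, pericyte markers higher in 3 of 7 and all 10 Sertoli markers higher. Granulosa markers were lower in 7 of 8 cases (median -2.06) and epithelial markers in 3 of 6 (median -1.26). What these lists contributed was not tested. The comparisons of dKO XY and control XX with control XY share the control XY libraries.

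Interstitial cells, the mesenchyme around the cords, had 2 of the 9 genes called between dKO XY and control XY, where 7.22% of all genes were called. *Igf1* had 172 and 161 CPM in control XY and 98.6 and 86.0 CPM in dKO XY, and fell by 0.86 (SE 0.11, edgeR adjusted p = 0.006), which is 1.81-fold lower. *Igfbp6* had 40.9 and 40.6 CPM in control XY and 19.1 and 14.4 CPM in dKO XY, and fell by 1.29 (SE 0.15, edgeR adjusted p = 0.00404). The groups did not overlap in either gene. The summed level of the 8 interstitial markers was also lower in dKO XY interstitial cells, at 4274 and 4331 CPM against 6165 and 5890 CPM in control XY. Markers of other types were higher, with all 6 germ cell markers (median log2 difference 3.18), 5 of 8 granulosa, 4 of 7 epithelial and 4 of 7 erythroid markers called. The part of these lists in the fall of *Igf1* and *Igfbp6* was not tested. The median log2 difference was -0.0648 for the 9 genes and -0.0080 for all genes.

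The interstitial cells formed 3 clusters, numbered 0, 1 and 2. Cluster 0 was led by *Sostdc1* and *Msc*, cluster 1 by dividing-cell genes such as *Aspm* and *Cenpe*, and both were nearly only XY. Cluster 2, led by *Il33* and *Gdf10*, held 1519 and 2939 control XX cells but 271 and 229 control XY and 645 and 315 dKO XY cells. In cluster 0, 3 of the 9 genes were called between dKO XY and control XY (8.01% of all genes), and in cluster 1 also 3 (8.79% of all genes). *Igf1* fell by 0.91 in cluster 0 (SE 0.12, edgeR adjusted p = 0.0117) and by 0.93 in cluster 1 (SE 0.09, edgeR adjusted p = 0.00363). *Igfbp6* fell by 1.17 in cluster 0 (SE 0.13, edgeR adjusted p = 0.00759) and by 1.147 in cluster 1 (SE 0.14, edgeR adjusted p = 0.00734), the latter lost without control XY library 1 (0.0659).

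*Igfbp3* rose in both clusters. In cluster 0 it had 257 and 235 CPM in control XY and 375 and 325 CPM in dKO XY, a log2 difference of 0.51 (SE 0.11, edgeR adjusted p = 0.04), and in cluster 1 the difference was 0.65 (SE 0.15, edgeR adjusted p = 0.0467). These calls were lost without control XY library 1 (adjusted p = 0.104 in cluster 0 and 0.139 in cluster 1) or control XY library 2 (0.176 and 0.229). Over all interstitial cells *Igfbp3* had 232 and 198 CPM in control XY and 337 and 271 CPM in dKO XY and was not called (0.49, adjusted p = 0.133). It was called higher there with DESeq2 (0.50, DESeq2 adjusted p = 0.0488) and without the filter on low counts.

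In cluster 2 none of the 9 genes was called between dKO XY and control XY by edgeR, nor was any gene (0.00% of 13374), while 964 genes had an unadjusted p under 0.05 and DESeq2 called 67. Of the 9 genes, 2 had an unadjusted p under 0.05 and DESeq2 called 1. *Igfbp6* had 37.3 and 61.3 CPM in control XY and 18.4 and 18.1 CPM in dKO XY cluster 2 cells, without overlap (log2 difference -1.46, adjusted p = 0.0571). *Igf1* had 312 and 228 CPM in control XY and 159 and 203 CPM in dKO XY, also without overlap (-0.60, adjusted p = 0.307). The plot of the interstitial clusters gives these levels.

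**Figure D3:**
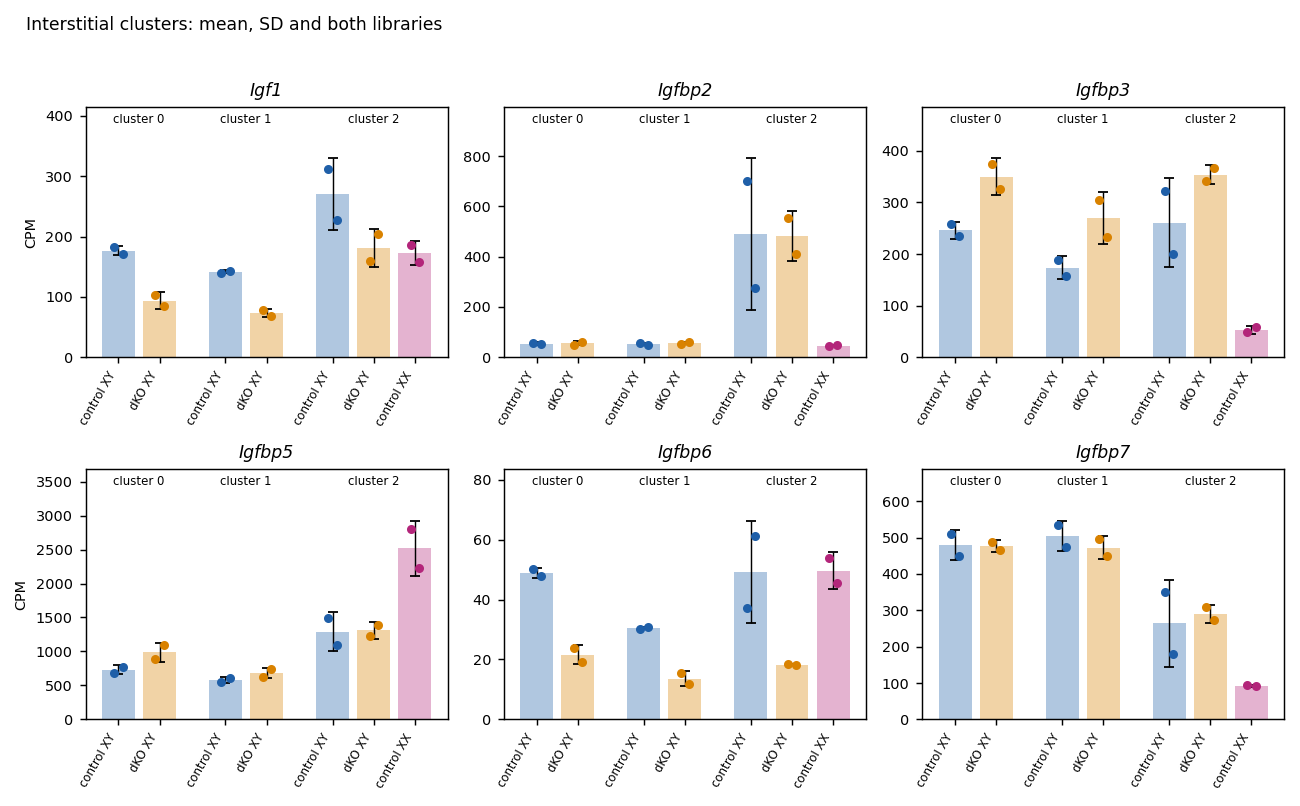
Levels (CPM) of 6 of the genes in interstitial clusters 0, 1 and 2. Bars are means of 2 libraries, whiskers the SD and points the libraries, and control XX is shown in cluster 2 alone because the others held few of its cells. *Igf1* and *Igfbp6* lie lower in both dKO XY libraries than in both control XY libraries in each cluster.

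Between the sexes, 4 of the 9 genes were called in interstitial cells, where 25.3% of all genes were. *Igfbp5* had 672 and 715 CPM in control XY and 2789 and 2231 CPM in control XX, 3.78-fold higher (log2 difference 1.92, SE 0.13, edgeR adjusted p = 2.93e-05). *Igfbp4* had 496 and 447 CPM in control XY and 732 and 876 CPM in control XX (0.84, SE 0.17, edgeR adjusted p = 0.0077), lost without control XY library 2 (0.0613). *Igfbp3* was lower in control XX, at 47.5 and 57.7 CPM (-1.96, SE 0.17, edgeR adjusted p = 0.00013), and so was *Igfbp7*, at 93.7 and 90.8 CPM against 511 and 449 CPM in control XY (-2.31, SE 0.12, edgeR adjusted p = 8.06e-06). None of these groups overlapped. Leydig markers were lower in control XX interstitial cells too, with 6 of 6 called (median -7.67) and a summed level of 5.19 and 3.11 CPM against 546 and 504 CPM in control XY. Of 10 Sertoli markers 8 were called, all lower (median -4.35). Granulosa markers were mostly higher, with 7 called higher and 1 lower of 8 (median 3.001), and of 6 germ cell markers 5 were called higher. Within cluster 2, described next, all 5 Leydig markers tested were also lower (median -6.62), with a summed level of 96.7 and 129 CPM in control XY. The part of these lists in the differences was not tested. The median log2 difference was 0.11 for the 9 genes and -0.0039 for all genes. *Igfbp2* was not called in interstitial cells between the sexes, but was called lower in control XX with DESeq2 (-0.65, DESeq2 adjusted p = 0.0105). It was also called lower without TMM, without the filter on low counts and with only the 2 groups compared. The last setting called *Igfbp6* higher as well (0.35, edgeR adjusted p = 0.0310).

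Since the control XX interstitial cells were nearly all of cluster 2, the comparison was made within that cluster as well, as an alternative added after the data were seen. Of the 9 genes, 6 were called, where 11.8% of all genes were. *Igfbp5* (1.00, SE 0.18, edgeR adjusted p = 0.00314), *Igfbp4* (0.67, SE 0.16, edgeR adjusted p = 0.0157), *Igfbp3* (-2.25, SE 0.21, edgeR adjusted p = 4.53e-05) and *Igfbp7* (-1.47, SE 0.24, edgeR adjusted p = 0.00194) kept their direction and their calls. *Igfbp2* had 702 and 276 CPM in control XY, 554 and 411 CPM in dKO XY and 43.9 and 48.2 CPM in control XX cluster 2 cells, and was lower in control XX (-3.36, SE 0.35, edgeR adjusted p = 0.000101). This is the opposite direction to supporting cells, though the difference between these cell types was not tested. *Igf1* was lower in control XX (-0.61, SE 0.17, edgeR adjusted p = 0.0351).

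In interstitial cells, 7 of the 9 genes were called between dKO XY and control XX, where 28.3% of all genes were, with a median log2 difference of -0.0645 for the 9 genes and -0.0060 for all genes. *Igfbp3*, *Igfbp7* and *Igfbp2* were higher in dKO XY by 2.45 (SE 0.18), 2.22 (SE 0.12) and 1.11 (SE 0.21). *Igfbp5*, *Igfbp6*, *Igf1* and *Igfbp4* were lower, with log2 differences of -1.64, -1.63, -0.96 and -0.95. Within cluster 2 the difference of *Igf1* was 0.0055 (adjusted p = 0.991), so this call was not seen there. The difference of *Igfbp2* was larger in cluster 2, at 3.32 (SE 0.35, edgeR adjusted p = 0.000108). Those of *Igfbp7* (1.58, SE 0.24), *Igfbp5* (-1.01, SE 0.18), *Igfbp3* (2.67, SE 0.21), *Igfbp6* (-1.51, SE 0.21) and *Igfbp4* (-0.92, SE 0.16) kept their direction and their calls, with edgeR adjusted p from 1.72e-05 to 0.00269. All 6 Leydig markers and 9 of 10 Sertoli markers were higher in dKO XY than in control XX interstitial cells (median log2 differences 8.54 and 4.21), and their part was not tested. Markers of the other cell types are not reported for this comparison, and their part was not tested either.

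The effect of the knockout was compared between supporting and interstitial cells of the same XY libraries. The difference of the effects was called for 5 of the 9 genes, where 19.7% of all genes were called. *Igfbp2* changed more upward in supporting cells, by 1.57 (SE 0.25, edgeR adjusted p = 0.0016), and so did *Igfbp6*, by 2.00 (SE 0.22, edgeR adjusted p = 0.000211). Within each type, *Igfbp6* was called lower in dKO XY interstitial cells and was not called in supporting cells. *Igfbp3* changed more downward in supporting cells, by -1.45 (SE 0.18, edgeR adjusted p = 0.000354). Against Leydig cells the difference was called for 6 of the 9 genes, where 20.2% of all genes were. For *Igfbp2* it was 2.61 (SE 0.11, edgeR adjusted p = 7.02e-08). Markers of several cell types also differed between the groups within supporting, interstitial and Leydig cells, and their part in these differences of effects was not tested.

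Leydig cells, the steroid-producing cells of the testis, had 2 of the 9 genes called between dKO XY and control XY, where 7.49% of all genes were. *Igfbp2* had 299.8 and 296 CPM in control XY and 198 and 234 CPM in dKO XY Leydig cells, without overlap, and fell by 0.49 (SE 0.10, edgeR adjusted p = 0.0213). The call was lost without control XY library 1 (0.0558) or control XY library 2 (0.0636). *Igfbp5* had 43.7 and 60.3 CPM in control XY and 108 and 107 CPM in dKO XY, and rose by 1.03 (SE 0.14, edgeR adjusted p = 0.00685), or 2.03-fold. At a mitochondrial share under 10% its difference was 0.64 (adjusted p = 0.115). Immune cells of the same libraries had 114 and 111 CPM of *Igfbp5* in control XY and 138 and 95.5 CPM in dKO XY. Leydig cells were above them in dKO XY library 2 alone, and the part of free RNA was not tested. *Igfbp7*, which was among the genes highest in endothelial and Leydig cells, had 999.9 and 882 CPM in control XY and 901 and 764 CPM in dKO XY, which overlapped, and was not called (-0.20, adjusted p = 0.376). The summed level of the Leydig markers was 33140 and 31277 CPM in control XY and 23694 and 23653 CPM in dKO XY. Markers of other types were higher in dKO XY Leydig cells. Of 7 granulosa markers 6 were called (median log2 difference 1.59), with a summed level of 124 and 128 CPM in control XY and 291 and 337 CPM in dKO XY. Of 6 germ cell markers 5 were called (median 2.93), with 3.56 and 3.53 CPM in control XY and 21.4 and 26.8 CPM in dKO XY, and so were 3 of 7 supporting lineage, 4 of 7 erythroid and 2 of 4 epithelial markers. Their part in the rise of *Igfbp5* was not tested.

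Endothelial cells had the highest *Insr* in all 3 groups, and the highest *Igfbp4* in control XY and dKO XY. None of the 9 genes was called there by edgeR between dKO XY and control XY, where 0.514% of all genes were called. An unadjusted edgeR p under 0.05 was found for 3 of the 9 and for 1042 of 12065 genes. DESeq2 called 2 of the 9 and 80 of the 12065. *Igfbp3* had 169.8 and 185 CPM in control XY and 245 and 392 CPM in dKO XY, without overlap (0.85, adjusted p = 0.0789), and *Igfbp7* at 1076 and 1059 CPM in control XY and 680.4 and 460.5 CPM in dKO XY, also without overlap (-0.89, adjusted p = 0.0636). Between the sexes 1 of the 9 was called, where 4.73% of all genes were. *Igfbp3* was at 316 and 315 CPM in control XX and higher than in control XY (0.88, SE 0.18, edgeR adjusted p = 0.0163), but not without control XY library 1 (0.120) or control XY library 2 (0.112). *Insr* was the 1 gene called between dKO XY and control XX, where 2.93% of all genes were, at 51.7 and 51.0 CPM in dKO XY and 84.3 and 68.4 CPM in control XX (-0.61, SE 0.13, edgeR adjusted p = 0.03). This call was lost without control XX library 1 (0.184), either control XY library (0.0578 and 0.0606) or either dKO XY library (0.0648 and 0.0982). Of the 7 endothelial markers none was called in either of these comparisons, while markers of other types were. Leydig markers were lower in control XX than in control XY in 5 of 6 cases (median log2 difference -7.82) and higher in dKO XY than in control XX in 6 of 6 (median 8.25), with a summed level of 342.5 and 368 CPM in control XY, 389 and 803 CPM in dKO XY and 3.99 and 3.33 CPM in control XX. Granulosa markers were higher in control XX than in control XY in 5 of 8 cases, and Sertoli (3 of 8) and interstitial markers (3 of 8) lower. In dKO XY against control XX all 4 erythroid markers tested and 4 of 8 Sertoli markers were higher, and 3 of 8 granulosa markers lower. The contribution of these lists to the differences of *Igfbp3* and *Insr* was not tested.

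In pericytes, the mural cells of vessels, none of the 9 genes was called between dKO XY and control XY by edgeR or DESeq2. There edgeR called 0.283% of all genes and DESeq2 23 of 12013. An unadjusted edgeR p under 0.05 was found for 1 of the 9 and for 732 of the 12013. Between the sexes 4 of the 9 were called, where 7.77% of all genes were. *Igfbp5* had 317 and 397 CPM in control XY and 219 and 125 CPM in control XX (-1.04, SE 0.20, edgeR adjusted p = 0.00455). *Igfbp2* had 71.6 and 62.1 CPM in control XY and 43.2 and 24.3 CPM in control XX (-1.03, SE 0.22, edgeR adjusted p = 0.00783). *Igfbp3* had 47.4 and 54.5 CPM in control XY and 4.16 and 15.97 CPM in control XX (-2.02, SE 0.39, edgeR adjusted p = 0.00468), and *Igf1r* had 120.3 and 147 CPM in control XY and 101 and 63.5 CPM in control XX (-0.70, SE 0.19, edgeR adjusted p = 0.0412). Over the alternatives the log2 difference of *Igfbp3* ran from -3.61 to -1.59.

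All 4 pericyte differences were lower in control XX, while *Igfbp2* and *Igfbp5* were higher in control XX supporting cells, a difference between the cell types that was not tested. Several of these calls depended on 1 library or setting. *Igfbp5* was lost without control XY library 2 (0.0643), *Igfbp2* without control XX library 2 (0.198) or control XY library 1 (0.0540), and *Igfbp3* with DESeq2 (0.0700). *Igf1r* was lost without control XX library 2 (0.399), control XY library 1 (0.0580) or control XY library 2 (0.341), and with a replicate block (0.0887). Pericytes had 3 of the 9 called between dKO XY and control XX, where 6.65% of all genes were, and *Igfbp3* (2.19), *Igfbp5* (1.31) and *Igfbp2* (1.28) were higher in dKO XY, *Igfbp2* not without control XX library 2 (0.0562). The summed interstitial markers in pericytes were 2852 and 3014 CPM in control XY and 1707 and 1831 CPM in control XX (3 of 8 called, all lower, median log2 difference -0.70). Leydig markers differed more, with 4 of 5 called lower in control XX (median -7.44) and a summed level of 136 and 131 CPM in control XY and 4.16 and 1.45 CPM in control XX. Of 7 Sertoli markers 6 were called lower (median -6.53), at 79.5 and 136 CPM in control XY and 11.6 and 17.1 CPM in control XX. In dKO XY against control XX, 4 of 5 Leydig, 6 of 7 Sertoli and 4 of 5 erythroid markers were called higher. The part of these lists in the pericyte differences was not tested.

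Epithelial cells of the gonad surface were few in control XY (32 and 51), while dKO XY libraries held 190 and 296 and control XX libraries 217 and 123. In dKO XY against control XY, 4 of the 9 genes were called, where 7.38% of all genes were. *Igfbp2* had 237 and 308 CPM in control XY, 1215 and 754 CPM in dKO XY and 1242 and 667 CPM in control XX. Against control XY the log2 level in dKO XY was 1.87 higher (SE 0.32, edgeR adjusted p = 0.0063), and that in control XX 1.86 higher (SE 0.32, edgeR adjusted p = 0.00841). *Igf1* had 295 and 227 CPM in control XY and 74.9 and 59.8 CPM in dKO XY and fell by 1.95 (SE 0.27, edgeR adjusted p = 0.00266), and *Igfbp6* had 188 and 152 CPM in control XY and 66.8 and 30.9 CPM in dKO XY and fell by 1.78 (SE 0.34, edgeR adjusted p = 0.0102). *Igfbp3* fell by 0.91 (SE 0.19, edgeR adjusted p = 0.0157).

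All 8 interstitial markers had UMIs in epithelial cells, and their summed level was 5696 and 5545 CPM in control XY, 1213 and 1582 CPM in dKO XY and 1431 and 3426 CPM in control XX. The part of interstitial RNA in the falls of *Igf1*, *Igfbp6* and *Igfbp3* was not tested. Markers of the supporting lineage were higher in dKO XY epithelial cells, with 5 of 7 called (median log2 difference 2.16), as were 4 of 8 granulosa markers (3.42), 3 of 9 Sertoli markers (1.54) and 4 of 5 germ cell markers, each of which had no UMI in control XY. The summed granulosa markers were 309.9 and 269 CPM in control XY and 1024 and 1027 CPM in dKO XY, and the germ cell markers 0 CPM in both control XY libraries and 43.9 and 219.95 CPM in dKO XY. In control XX 5 of 8 granulosa markers were called higher than in control XY (median 3.96), with a summed level of 1034 and 464 CPM. Of the 7 epithelial markers themselves 2 were called lower in dKO XY (median -0.75), as were both mesonephric markers tested (median -2.26), while 2 of 6 endothelial markers were higher. The part of these lists in the differences of epithelial cells was not tested. Without control XY library 1 the adjusted p between dKO XY and control XY was 0.0836 for *Igfbp2*, 0.0631 for *Igfbp3* and 0.0915 for *Igfbp6*, and without control XY library 2 it was 0.0585, 0.179 and 0.0560. *Igfbp2* was also lost without dKO XY library 1 (0.0543), *Igfbp3* without dKO XY library 1 (0.0843) or library 2 (0.0837) and *Igfbp6* without dKO XY library 2 (0.0523), and the call of *Igf1* held in each of these.

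Between the sexes 3 of the 9 genes were called in epithelial cells, where 4.60% of all genes were, and between dKO XY and control XX 2, where 2.59% were. *Igfbp7* was called in both, at 81.0 and 51.2 CPM in control XY, 81.8 and 78.6 CPM in dKO XY and 7.54 and 8.04 CPM in control XX (log2 differences of -3.01 between the sexes and 3.31 between dKO XY and control XX). Its epithelial level was below that of immune cells in both control XY libraries and above it in both dKO XY libraries (81.0 and 64.9 CPM in immune cells). Leydig markers moved the same way, with 4 of 5 called lower and 1 higher in control XX than in control XY (median log2 difference -5.33) and 4 of 5 called higher in dKO XY than in control XX (median 5.47). Their summed level in epithelial cells was 99.2 and 91.1 CPM in control XY, 142 and 127 CPM in dKO XY and 27.3 and 29.3 CPM in control XX. Their part was not tested. *Igfbp6*, not called between the sexes, was called lower in control XX with DESeq2 (-1.30, DESeq2 adjusted p = 0.0154), a replicate block and some other settings. *Igfbp4* was not called, but with DESeq2 it was lower in dKO XY than in control XY (-0.77, DESeq2 adjusted p = 0.0362) and control XX (-0.86, DESeq2 adjusted p = 0.0223). *Igf1* was lower in dKO XY than in control XX (-1.57, SE 0.26, edgeR adjusted p = 0.0112), but not without dKO XY library 2 (0.202). The sex difference of *Igfbp2* was lost without control XY library 1 (0.109) or library 2 (0.0794). *Igfbp3* differed by -0.91 (SE 0.19, edgeR adjusted p = 0.0216), lost without control XX library 2 (0.0641), control XY library 1 (0.0882) or control XY library 2 (0.240).

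The immune cluster also held erythroid transcripts. None of the 9 genes was called there between dKO XY and control XY by edgeR or DESeq2, where edgeR called 0.00872% of all genes and DESeq2 40 of 11472. An unadjusted edgeR p under 0.05 was found for 2 of the 9 and for 912 of the 11472. Between the sexes 1 was called, where 1.80% of all genes were, and between dKO XY and control XX the same 1, where 0.506% were. This was *Igfbp7*, with 404 and 273 UMIs in control XY immune cells and 2 and 6 UMIs in control XX (log2 difference -5.07, SE 0.36, edgeR adjusted p = 0.00332). Against control XX the dKO XY level was higher by 4.52 (SE 0.37, edgeR adjusted p = 0.00715), but not called without dKO XY library 1 (0.0559). The summed Leydig markers in immune cells moved the same way, from 512 and 1625 CPM in control XY and 452 and 135 CPM in dKO XY to 0.739 and 14.0 CPM in control XX. *Igfbp3* had 0 UMIs in the immune cells of control XX library 1, which allows up to 2.22 CPM.

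Germ cells were compared between dKO XY and control XX, since control XY libraries held 15 and 7 of them. Of the 9 genes 4 were called, where 49.6% of all genes were. Over all 14677 genes edgeR called 7279 and DESeq2 4492. *Igfbp7* was at 44.98 and 30.2 CPM in dKO XY and 4.34 and 9.12 CPM in control XX (2.58, SE 0.26, edgeR adjusted p = 1.57e-12), and *Igfbp3* at 32.6 and 25.6 CPM in dKO XY and 14.7 and 14.6 CPM in control XX (1.07, SE 0.22, edgeR adjusted p = 4.93e-05). Immune cells of the dKO XY libraries had 81.0 and 64.9 CPM of *Igfbp7* and 63.6 and 38.3 CPM of *Igfbp3*, above the germ cells in each. Those of control XX had 1.48 and 4.42 CPM of *Igfbp7* and 0 and 8.10 CPM of *Igfbp3*, below the germ cells, and the part of free RNA was not tested. Leydig markers summed to 294 and 214 CPM in dKO XY germ cells and 8.57 and 8.22 CPM in control XX germ cells. Sertoli markers (7 of 9, median log2 difference 2.82), immune markers (5 of 6, median 2.33), endothelial markers (4 of 6), pericyte markers (4 of 7) and erythroid markers (4 of 5) were also called higher in dKO XY germ cells, and granulosa markers lower (4 of 8). The contribution of these lists was not tested. *Igfbp5* (-0.54, SE 0.18, edgeR adjusted p = 0.0108) was lost without control XX library 2 (0.177) or dKO XY library 1 (0.0530), and without likely doublets it was 0.14 (0.605). *Igfbp6* (-0.93, SE 0.40, edgeR adjusted p = 0.0443) was lost in 7 of 12 alternatives, among them without each of the 4 libraries compared (0.0558 to 0.226). *Igf1r* was at 41.995 and 53.7 CPM in dKO XY and 45.8 and 35.3 CPM in control XX germ cells, which overlapped.

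The heat map of the log2 differences sets the comparisons with control XY side by side. Between dKO XY and control XY *Igfbp2* was called higher in supporting, Sertoli-like and epithelial cells and lower in Leydig cells, with its Sertoli-like levels below those of immune cells. *Insr* was called in none of them, and *Igf1r* between the sexes in supporting cells and pericytes.

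**Figure D4:**
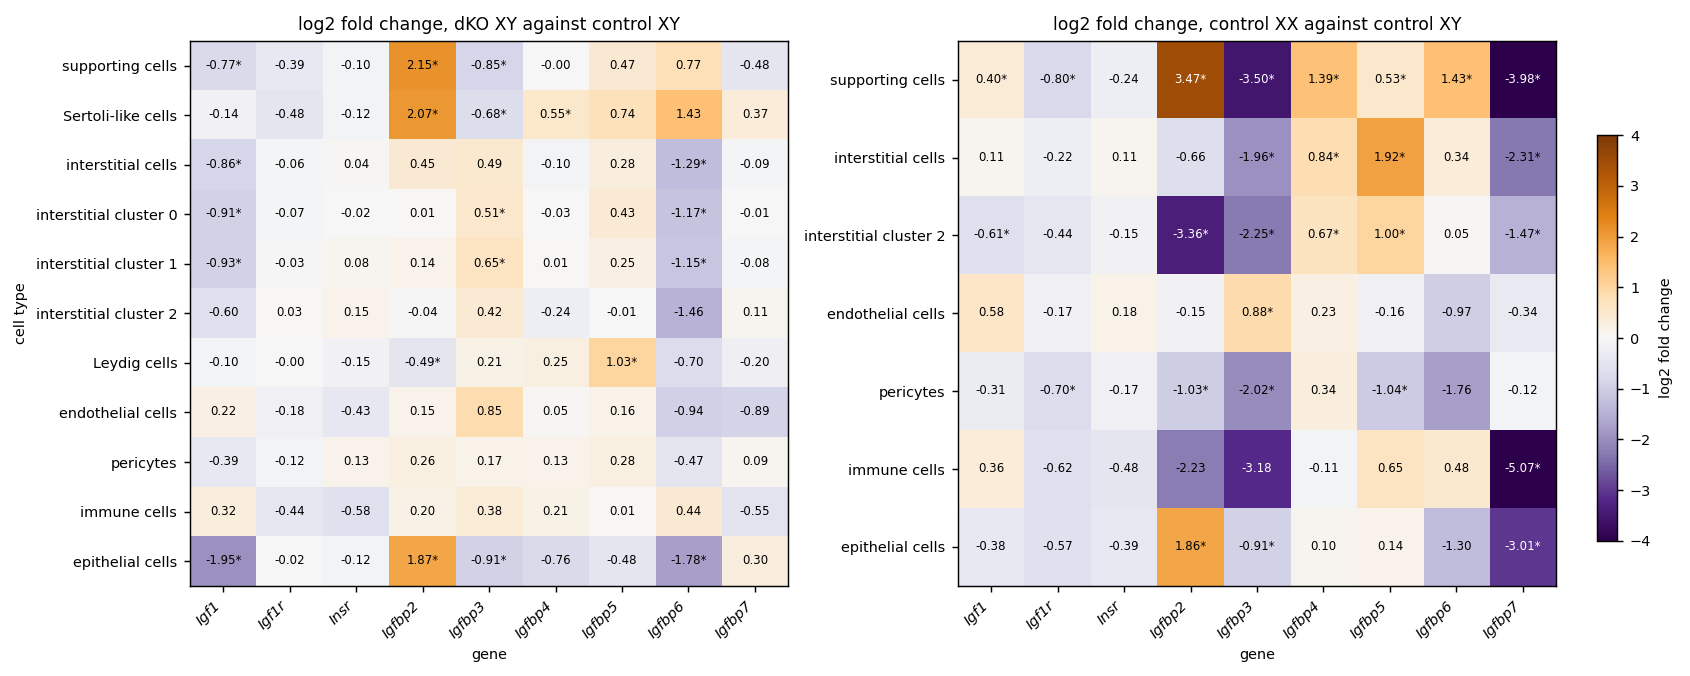
Log2 differences of the 9 genes (columns) in each cell type (rows) for dKO XY against control XY (left) and control XX against control XY (right), orange for higher and purple for lower in the first group named, with the colour scale ending at 4; a star marks an edgeR adjusted p under 0.05. In supporting cells *Igfbp2* is at 2.15 between dKO XY and control XY and at 3.47 between control XX and control XY.

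Of 31 other genes of the pathway, namely proteases of binding proteins and their inhibitors, adaptors and downstream kinases, 26 were tested in supporting cells. In dKO XY, 3 were called against control XY, 2 higher and 1 lower in dKO XY, where 16.6% of all genes were called. *Pik3r3*, which encodes a regulatory subunit of PI3-kinase, was at 1.81 ± 0.318 CPM in control XY and 11.6 ± 2.80 CPM in dKO XY and rose by 2.65 (SE 0.26, edgeR adjusted p = 0.00014). Another regulatory subunit gene, *Pik3r1*, fell by 0.65 (SE 0.12, edgeR adjusted p = 0.00515), and in Sertoli-like cells by 1.23 (SE 0.15, edgeR adjusted p = 0.00041), where 3 of 26 were called (14.4% of all genes).

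Between the sexes 12 of 26 were called in supporting cells, 5 higher and 7 lower in control XX, where 48.7% of all genes were called. *Pik3r3* was at 35.8 ± 2.98 CPM in control XX (log2 difference 4.21). *Pappa*, a protease that cuts IGFBP4 and IGFBP5, was at 49.5 ± 14.0 CPM in control XY, 39.8 ± 0.931 CPM in dKO XY and 5.60 ± 2.06 CPM in control XX supporting cells (-3.16, SE 0.26, edgeR adjusted p = 5.9e-06). *Stc1*, which encodes an inhibitor of that protease family, differed by -2.68, the insulin receptor substrate gene *Irs2* by -1.43 and the adaptor gene *Grb14* by -1.44. In dKO XY against control XX, 14 of 26 were called, 7 in each direction, where 40.9% of all genes were.

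In interstitial cells 5 of 29 were called between dKO XY and control XY, 2 higher and 3 lower, where 7.22% of all genes were called, with *Grb14* at 22.6 ± 0.520 CPM in control XY and 49.5 ± 1.84 CPM in dKO XY (1.12, SE 0.10, edgeR adjusted p = 0.0024) and *Shc1* lower (-0.45, SE 0.09, edgeR adjusted p = 0.0214). Between the sexes 11 of 29 were called there, 6 higher and 5 lower in control XX, where 25.3% of all genes were. *Stc1* was at 100.5 ± 2.06 CPM in control XY and 5.65 ± 0.662 CPM in control XX (-4.09), and *Stc2* differed by -3.43. *Pik3r1* (2.14) and *Htra1* (1.81), a serine protease that can cut binding proteins, were higher in control XX. In Leydig cells 3 of 26 were called between dKO XY and control XY (7.49% of all genes), with *Pappa* lower (-0.81, SE 0.12, edgeR adjusted p = 0.00742) and *Stc1* (0.55) and *Grb14* (0.46) higher. In endothelial cells *Htra1* alone of 25 was called between dKO XY and control XY (0.514% of all genes), at 113 ± 0.184 CPM in control XY and 35.1 ± 12.7 CPM in dKO XY (-1.65, SE 0.20, edgeR adjusted p = 0.0036).

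Across 42 sums of a cell type in a library, the genes whose log2 levels were most like those of each of the 9 were found by Pearson's r, as a description of sums that share libraries and depth. The highest was *Palld* for *Igfbp5*, with r = 0.96, followed by *Alcam* (0.93) and *Emp2* (0.90). *Igfbp7* was most like *Jag1* (0.91), *Igf1r* most like *Mex3a* (0.91), *Insr* most like *Cdipt* (0.89), *Igfbp4* most like *Prnp* (0.89) and *Igf1* most like *Tnfsf12* (0.89). *Igfbp6* was most like *Isoc1* (0.84), and *Igfbp5* itself was among its 3 nearest genes (0.82). The lowest values were those of *Igfbp2*, with *Olfm1* (0.83), and of *Igfbp3*, with *Phldb2* (0.80). Among the 9 genes themselves, *Igf1* and *Igfbp4* had r = 0.82 and *Igfbp6* and *Igfbp7* had r = -0.45.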

How the data were processed

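Single cells of 6 libraries of gonads at E15.5, 2 for each of the 3 groups, were analysed from the UMI count matrices that the authors deposited. Per the study's methods and the submitters' processing notes, the authors aligned reads to mm10 and counted UMIs with Cell Ranger and corrected for swapped barcodes; the counts are not normalized, and the annotation release is not given in the sources used here. RNA that is free in the droplets was not removed.

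Cells were kept that had over 2500 and under 9000 genes, a mitochondrial share under 25% and an *Hbb* share under 20%. They were clustered with Seurat 5.3.0 (R 4.3.3; 3000 variable genes, 20 dimensions, resolution 0.21). The 9 described genes, the 31 other pathway genes, *Amh* and *Inhbb* were held out of the variable genes, which removed 17 of these genes. Clusters were named from fixed marker lists, with at least 3 markers passing. Supporting cells with low *Sycp3* and *Tcf21* were reclustered (8 dimensions, resolution 0.25). Scrublet's automatic threshold (scanpy 1.11.5) marked 0 to 71 cells per library, too few to be of use, so doublets were kept, and an alternative dropped the top 8% by score. Figures were drawn with matplotlib 3.10.9.

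For each library and cell type of at least 10 cells the UMIs were summed and tested with edgeR 4.0.16 (filterByExpr, TMM, quasi-likelihood F test, all groups of a cell type in 1 fit), with Benjamini-Hochberg adjustment over all genes and a call under 0.05. The SE is the log2 difference divided by the square root of F. The difference of effects between cell types was fitted with the library as a block. Alternatives were DESeq2 1.42.0, no TMM, no filter on low counts, only the 2 groups compared, a replicate block, no likely doublets, a mitochondrial share under 10% and each library left out. The steps were tested on simulated data. The study's methods call the libraries of a group biological replicates. With 2 of them per group the spread is known poorly. Intervals and floors (3 UMIs) cover counting error only.

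All 9 genes are named whatever their values. Of the other pathway genes, up to 5 per comparison with the largest log2 difference among those called at a mean log2 CPM from 3 up could be named, and the 3 most similar genes were sought for each of the 9. The genes and lists were chosen with earlier results of these data known. Some genes of the pathway are not reported here.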

Additional observations from a re-analysis of the deposited data

Results flagged for a closer look

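The effect of the knockout differed between supporting cells and other cell types of the same XY libraries for these genes. This is by the test of the difference itself (edgeR, Benjamini-Hochberg adjusted over all genes), with all supporting cells. In those with low *Sycp3* and *Tcf21* the dKO XY against control XY difference was 0.47 for *Igf1*, not called, and 1.43 for *Igfbp5*. In Sertoli-like cells *Igfbp7* was higher in both dKO XY libraries than in control XY. The difference of effects was not tested in these subsets. Against Leydig cells, the log2 effect in supporting cells was higher for *Igfbp2*, by 2.61, and *Igfbp6*, by 1.49, and lower for *Igfbp3* (-1.14), *Igf1* (-0.69), *Igfbp5* (-0.59) and *Igf1r* (-0.41). Against interstitial cells it was higher for *Igfbp6*, by 2.00, and *Igfbp2*, by 1.57, and lower for *Igfbp3* (-1.45), *Igfbp7* (-0.45) and *Igf1r* (-0.37). The calls of *Igfbp2* and *Igfbp6* in both and of *Igfbp3* against interstitial cells held under each alternative run. Against Leydig cells, *Igf1*, *Igf1r*, *Igfbp3* and *Igfbp5* were not called at a mitochondrial share under 10% (adjusted p = 0.469, 0.346, 0.167 and 0.524), and with DESeq2 the adjusted p was 0.0730 for *Igf1* and 0.0626 for *Igf1r*. Without control XY library 2 the adjusted p was 0.0988 for *Igf1*, 0.125 for *Igf1r* and 0.0775 for *Igfbp3*, without dKO XY library 1 it was 0.148 for *Igf1*, 0.109 for *Igf1r* and 0.0783 for *Igfbp5*, and without control XY library 1 it was 0.0615 for *Igfbp5*. Against interstitial cells, *Igf1r* was lost without control XY library 2 (0.187) or dKO XY library 1 (0.139), with DESeq2 (0.0653) and at a mitochondrial share under 10% (0.120), and *Igfbp7* without control XY library 2 (0.167) or dKO XY library 2 (0.134).

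Other pairs of cell types were picked where a gene was called in both, without overlap of the groups, and with log2 differences of opposite sign. Large differences follow from this choice, and they were not tested. The share of all genes that meet the same rule was not determined. Between dKO XY and control XY the log2 effect on *Igfbp2* differed by -2.36 (Leydig minus epithelial cells). Between control XX and control XY the effect on *Igfbp2* differed by 4.50 (supporting cells minus pericytes) and -2.89 (pericytes minus epithelial cells). For *Igfbp3* the sex effect differed by -4.38 (supporting minus endothelial cells), -2.83 (interstitial minus endothelial cells), 2.90 (endothelial cells minus pericytes) and 1.79 (endothelial minus epithelial cells), and for *Igfbp5* by 1.56 (supporting cells minus pericytes) and 2.95 (interstitial cells minus pericytes). Between dKO XY and control XX the effect on *Igfbp2* differed by -2.43 (supporting minus interstitial cells) and -2.61 (supporting cells minus pericytes), and that on *Igfbp5* by -2.95 (interstitial cells minus pericytes) and -1.85 (germ cells minus pericytes). The *Igfbp5* effect in germ cells was 0.14 without likely doublets. Several other calls behind these pairs were lost under alternatives given above.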

How the results depend on the processing

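Of 76 calls among 234 tests of the 9 genes, 39 held under each alternative run. Over the comparisons counted here the share of all genes called ran from 0.00% to 49.6%. How many of the calls over all genes held was not determined. The calls of the 9 genes had from 5 to 14 alternatives each. Some tests share cells, since Sertoli-like cells are supporting cells and the clusters are part of the interstitial cells. Without TMM, without the filter on low counts and with only the 2 groups compared no call of the 9 genes was lost. The log2 difference reversed for *Igf1* in supporting cells between dKO XY and control XY (0.47 among reclustered cells), for *Igf1* in interstitial cells between dKO XY and control XX (0.0055 in cluster 2) and for *Igfbp5* in germ cells (0.14 without likely doublets), and the cause was not tested. The selections of reclustered cells and of cluster 2 were chosen after seeing the data. Of 198 mean levels, 72 moved by the SD of the group or more without likely doublets, with ratios to the main level from 0.296 to 2.34. At a mitochondrial share under 10% it was 33 (0.840 to 1.58), and with no gene held out of the variable genes 16 (0 to 1.44). Between dKO XY and control XY the number of the 9 genes called in supporting cells was 3, and it was 5 with DESeq2, with only the 2 groups compared and among reclustered cells, 6 without the filter and 4 without likely doublets. In endothelial cells it was 0, and 2 with DESeq2, without the filter and without likely doublets, and 1 without TMM, with only the 2 groups and at a mitochondrial share under 10%. In Sertoli-like cells it was 3, and 6 without the filter and without likely doublets. In Leydig cells it was 2, and 1 at the lower mitochondrial share, which also gave 2 in place of 6 for the difference of effects between supporting and Leydig cells. In interstitial cluster 2 it was 0, and 1 with DESeq2. Without the filter the count went from 1 to 2 in endothelial cells between the sexes and between dKO XY and control XX, and in immune cells from 1 to 4 and from 1 to 3, with 2 by DESeq2 in both. In germ cells it went from 4 to 2 without likely doublets. Over all genes, edgeR and DESeq2 called 2646 and 2628 in supporting cells and 62 and 80 in endothelial cells between dKO XY and control XY. They called 207 and 540 in immune cells between the sexes, and 58 and 237 there between dKO XY and control XX. Counts over all genes under most other settings are not given here. Under those settings a change for the 9 genes alone cannot be told from a change over all genes. With DESeq2 in supporting cells between dKO XY and control XY the 9 genes went from 3 to 5 calls. Over all genes the count went from 2646 to 2628.

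Leaving out 1 library gave 2 to 5 calls in supporting cells between dKO XY and control XY and 5 to 8 between the sexes, 1 to 4 in Leydig cells, 0 to 2 in endothelial cells between dKO XY and control XY and 0 to 1 in their other comparisons, 2 to 4 in pericytes between the sexes, 2 to 4 in germ cells and 0 to 1 in immune cells between dKO XY and control XX. In epithelial cells it gave 1 to 5 between dKO XY and control XY and 1 to 4 in the other comparisons, in interstitial cluster 1 it gave 1 to 4 and in cluster 2 it gave 0 to 1. The difference of effects had 3 to 7 calls against Leydig cells and 3 to 5 against interstitial cells. The shares of all genes called in these fits are not given here. These ranges thus cannot be told from changes over all genes. Where 1 library is left in a group, it is assumed to vary like the others.

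Libraries with the same number deviated together weakly between control XY and dKO XY (Pearson's r across genes, which are not independent, of 0.184 in supporting, 0.295 in interstitial and 0.081 in endothelial cells), and with control XX r was from -0.586 to -0.0216, so a pairing by number was not shown. With a replicate block the calls were 3, 8 and 6 in supporting cells and 2 in endothelial cells between dKO XY and control XY. They were 4 in Leydig cells and 5 in Sertoli-like cells. The shares of all genes called with a replicate block are not given here either. Depth limits genes with few UMIs, such as *Igfbp6* in Sertoli-like cells, and small groups of cells, such as control XY epithelial cells.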
